A study of Mus musculus with 55 samples.

Results

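Cytochrome P450 genes other than those of the Cyp2b and Cyp2c subfamilies were followed in mouse liver. Members were all genes whose symbol begins with Cyp and a digit, leaving out Cyp2b, Cyp2c and Cyp51, and that were listed in either of the 2 RNA-seq tables of the study, each of which holds genes that its authors had already selected as changed on the same libraries. The rule found 48 of the 4113 listed genes, 41 of them protein coding and 7 pseudogenes. The mouse annotation holds 105 genes with such names, and the remainder were not analysed here.

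Cytochrome P450 enzymes are heme proteins of the endoplasmic reticulum and mitochondria that insert an oxygen atom into their substrates with electrons passed on by a reductase. In hepatocytes they make bile acids from cholesterol, oxidize fatty acids and retinoids, and clear drugs and toxicants. Many are switched on by ligand-activated receptors, among them CAR, the receptor activated by TCPOBOP, and several differ between the sexes and between the central and portal zones of the liver lobule.

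RNA-seq was made from whole livers in 3 groups. The untreated group was 5 libraries from wild type (WT) mice, the WT + TCPOBOP group was 5 libraries from wild type mice 24 h after 3 mg/kg TCPOBOP, and the Setd8-LKO + TCPOBOP group was 4 libraries from mice with a liver-specific Setd8 deletion, also 24 h after 3 mg/kg TCPOBOP. Setd8-LKO mice carry a floxed exon 7 of Setd8, deleted by a Cre driven from the albumin promoter, which acts in hepatocytes and leaves the other liver cells with the gene. Mice were males of 45 to 50 days. No untreated Setd8-LKO RNA library is analysed here, so against untreated WT the genotype and the treatment cannot be told apart. The labels call the control mice untreated, while the methods of the study describe vehicle injections, so a difference in injection cannot be told apart either. The methods call the libraries biological replicates, but the labels name no animal, so p-values measure the spread between these libraries.

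Both tables give raw and normalized counts per library, and values below are normalized counts. The authors' scaling factor was 0.752 to 0.855 for the Setd8-LKO + TCPOBOP libraries, 1.03 to 1.25 for untreated WT and 1.09 to 1.39 for WT + TCPOBOP. Libraries came from 2 sequencing runs named in the table headers, with 1 Setd8-LKO + TCPOBOP library (replicate 4) in run A and the other 3 in run B. Kmt5a, the gene for Setd8, was higher in the libraries labelled Setd8-LKO (1313 to 1465) than in untreated WT (563 to 761), against that label, although its count also covers exons outside the deleted one. Groups are named by their labels throughout. Cyp2b10, the classical CAR target, was 25 to 106 in untreated WT, 53827 to 61594 in WT + TCPOBOP and 31592 to 66038 in Setd8-LKO + TCPOBOP. Of 10 hepatocyte markers 7 were listed for Setd8-LKO + TCPOBOP, all 7 lower, with a summed count of 493527 to 707045 against 1464368 to 2349556. All 5 cholangiocyte markers were listed, 4 of them higher (sum 1617 to 7426 against 422 to 686), and so were 4 of 6 stellate and fibroblast markers, all higher (5103 to 11702 against 2071 to 3108). None of the 5 endothelial markers was listed, and no listed macrophage (1 of 7), neutrophil (2 of 5) or lymphocyte marker (1 of 5) was called. For WT + TCPOBOP 1 of 10 hepatocyte markers was listed, Ass1, at 15376 to 23450 against 39082 to 96180 (log2 fold change −1.68). Ass1 was at 17482 to 30511 in Setd8-LKO + TCPOBOP, a similar level. Of 6 stellate and fibroblast markers 1 was listed for WT + TCPOBOP, Lrat, and it was lower (113 to 166 against 268 to 389, −1.22). The part of these markers in the results below was not tested, and in whole liver fewer cells of a type and less RNA per cell cannot be told apart.

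In untreated WT the members spanned a wide range of levels. Per kilobase of exon, Cyp2e1 stood first with a mean normalized count of 36554, followed by Cyp3a11 (16851), Cyp2f2 (14369), Cyp3a25 (10407) and Cyp2d9 (9259). The order was different after TCPOBOP. Cyp3a11 reached 71345 per kilobase in WT + TCPOBOP and 42860 in Setd8-LKO + TCPOBOP, where it was above Cyp2a5 (15662) and Cyp2e1 (11161). Cyp2f2 was at 1435 and Cyp7b1, ninth in untreated WT with 3123, at 101. Neighbours in this order have overlapping libraries in several places, as for Cyp2f2 and Cyp3a25, and near-identical paralogs can trade reads.

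**Figure D1:**
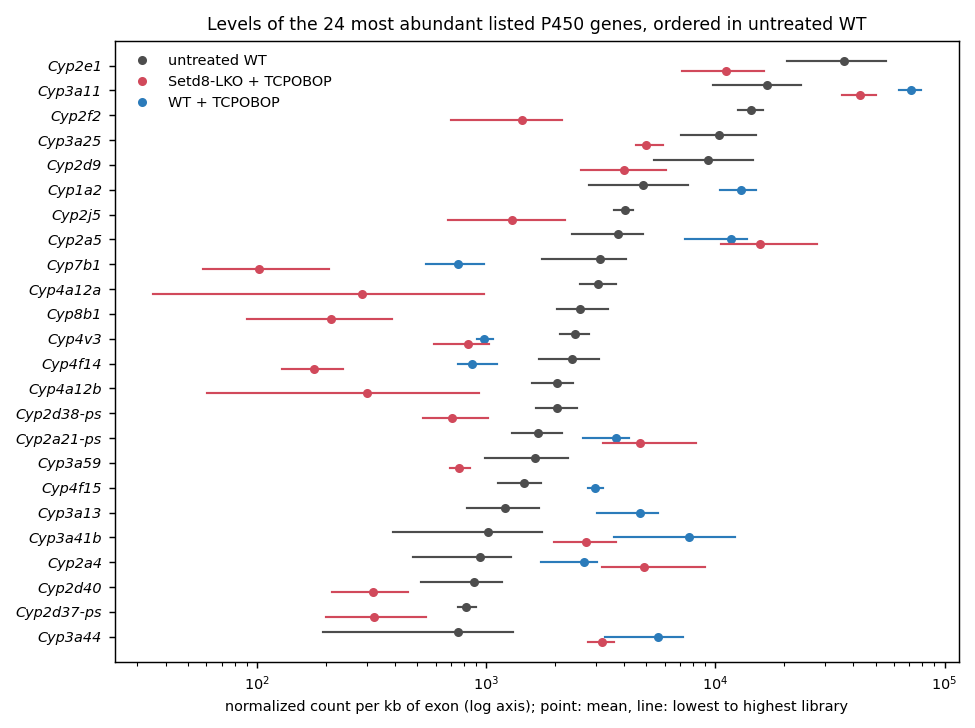
Mean normalized count per kilobase of exon (log axis) for the 24 members with the highest mean in untreated WT, for the groups in which each was listed, with a line from the lowest to the highest library. Cyp3a11 and Cyp2a5 lie higher in the treated groups, whereas Cyp2f2 and Cyp7b1 lie lowest in Setd8-LKO + TCPOBOP.

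The first comparison, Setd8-LKO + TCPOBOP against untreated WT, covered 43 members, 42 of which passed the filter on low counts, all but Cyp2d35-ps. The test was edgeR's quasi-likelihood test on raw counts with Benjamini-Hochberg adjustment over 55450 annotated genes, and a gene was called at an adjusted p under 0.05 with a log2 fold change of at least 1 in either direction. Of the 42 tested members 34 were called, 21 lower and 13 higher. Among all 3726 tested genes 85.1% were called, 34.6% lower and 50.5% higher, so the share of members called was near that of the table as a whole. The median log2 fold change was −1.29 over tested members and 1.16 over all tested genes. Groups did not overlap for 22 members on the lower side (34.1% of all listed genes) and 13 on the higher side (50.8% of all). Of the 43 members 39 had a p under 0.05 by exact permutation of the libraries (two-sided), where the smallest possible p is 0.00794, against 94.2% of all 3900 listed genes. All 42 tested members had the same sign within each of the 2 runs, but the size of the change often differed: for 19 the ratios of mean counts within run A, which holds 1 Setd8-LKO library, and within run B were over 1 apart on the log2 scale. With DESeq2 size factors estimated over the listed genes, 5 members were called higher and 23 lower. These factors move the median of all genes by −0.82 on the log2 scale. Of all genes tested with them 61.8% were called. Higher calls made up 34.3% of these, against 59.3% in the main fit. Calls of 26 of the 34 members were kept in each of the 9 fits without 1 library.

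The second comparison, WT + TCPOBOP against untreated WT, covered 19 members, and edgeR's quasi-likelihood test called 18 of them, 5 lower and 13 higher. Over the 679 genes tested there 67.6% were called, 16.2% lower and 51.4% higher. The median log2 fold change was 1.50 over members and 1.35 over all tested genes. All 19 members had groups that did not overlap, 5 lower (20.3% of all listed genes) and 14 higher (60.2% of all), and the same sign in both runs. All 19 had an exact permutation p under 0.05 (two-sided), against 97.1% of all listed genes. The calls depend on the scaling, and so do the signs of 2 members, Cyp2a21-ps and Cyp4f15. With DESeq2 size factors over the listed genes, 1 member (Cyp3a63-ps) was called higher and 5 lower. These factors move the median of all genes by −1.17. Trimmed-mean (TMM) factors, with a shift of −1.25, gave the same numbers. Of all tested genes 38.9% and 38.5% were called with the 2 scalings, against 67.6% in the main fit. Higher calls made up 25.6% and 23.6% of these, against 76.0% in the main fit. Calls of 12 of the 18 were kept in each of the 10 fits without 1 library. The 2 comparisons share the untreated WT libraries, so their values are given side by side and not related to each other.

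**Figure D2:**
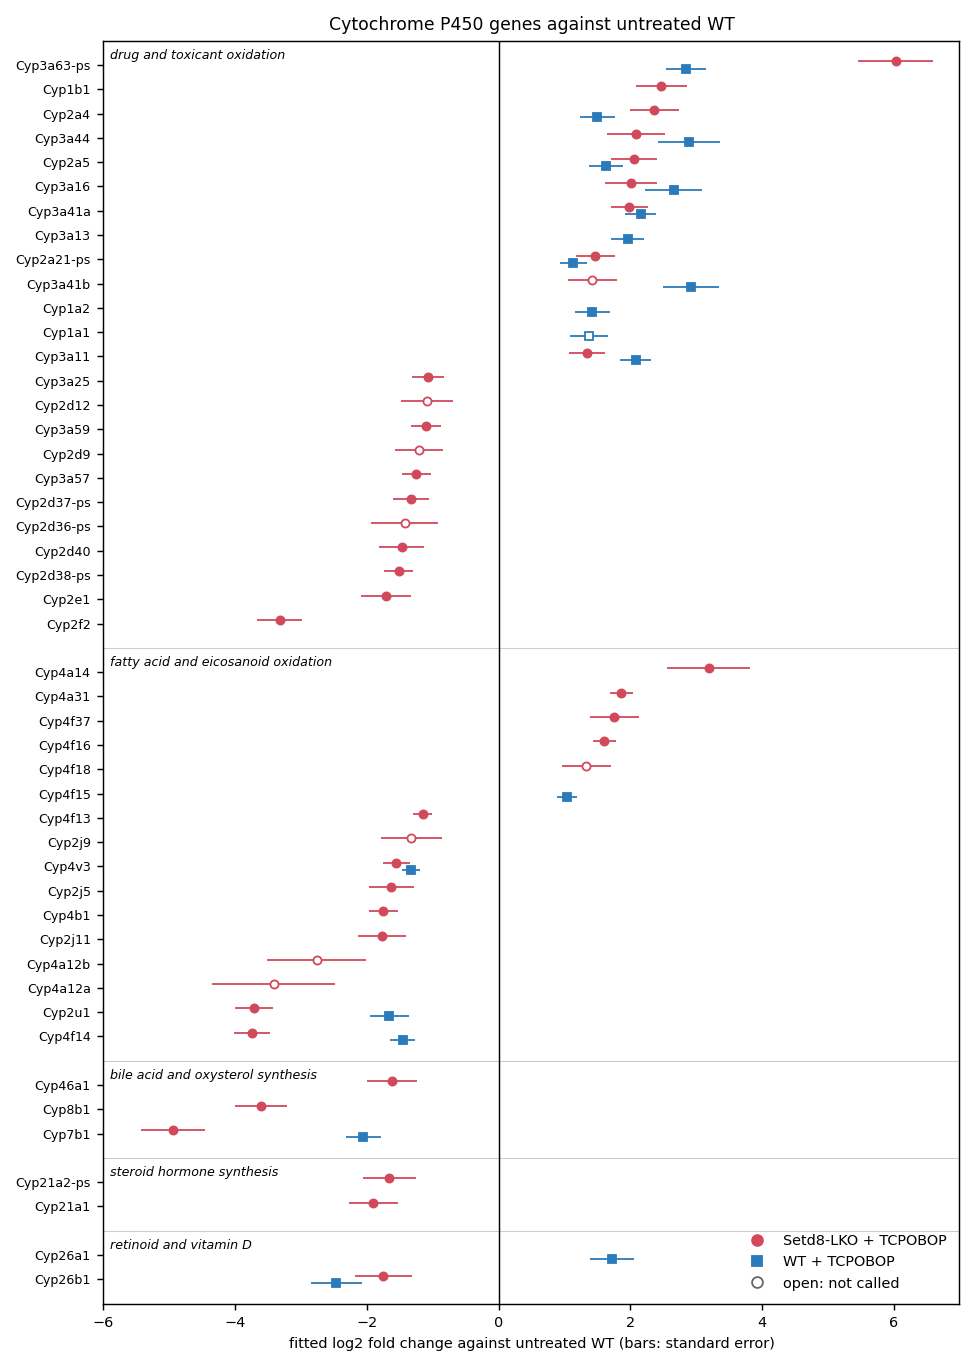
Fitted log2 fold change with its standard error for each member, by role, in Setd8-LKO + TCPOBOP (4 libraries) and WT + TCPOBOP (5 libraries), both against the same 5 untreated WT libraries. Filled points were called, and the zero line is no change. Bile acid genes lie left of the line, whereas Cyp2a genes and most Cyp3a genes lie right of it, although Cyp2a21-ps in WT + TCPOBOP moves to the left under the other scalings.

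All 3 bile acid and oxysterol members fell in Setd8-LKO + TCPOBOP, where 34.6% of all tested genes were called lower. Cyp7b1 (ENSMUSG00000039519, chr3:18071950-18243338), the oxysterol hydroxylase of the alternative bile acid pathway, had 8659, 7450, 5117, 8790 and 3802 normalized counts in untreated WT replicates 1 to 5, a mean of 6764 ± 2217 (SD, n = 5). In WT + TCPOBOP it had 1539, 1369, 1186, 1921 and 2119, and in Setd8-LKO + TCPOBOP 130, 125, 446 and 178, a mean of 220 ± 153 (SD, n = 4). The 3 groups did not overlap, and the Setd8-LKO libraries were lowest. Its log2 fold change against untreated WT was −4.94 (SE 0.49, edgeR adjusted p 8.71e-05), a 30.8-fold lower mean, or −5.55 without Setd8-LKO replicate 3, and −2.06 (SE 0.27, edgeR adjusted p 0.00281) in WT + TCPOBOP.

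Cyp8b1 (ENSMUSG00000050445, chr9:121914356-121916305), the sterol hydroxylase that sets the share of cholic acid, had 3950, 6631, 4382, 5504 and 4477 normalized counts in untreated WT and 359, 176, 757 and 345 in Setd8-LKO + TCPOBOP. No library of one group reached the other. The log2 fold change was −3.61 (SE 0.40, edgeR adjusted p 0.00017), or 12.2-fold lower. Cyp46a1, the cholesterol hydroxylase best known from neurons, was counted at 13 to 39 in untreated WT and 4 to 13 in Setd8-LKO + TCPOBOP, groups that touch. It was called (−1.62, edgeR adjusted p 0.0252), but only 3 of the 9 fits without 1 library kept the call, and the adjusted p reached 0.0952 without Setd8-LKO replicate 2.

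Promoters are printed for a few members that the results turn on and that had a window in the RefSeq table of GRCm38.p6 (250 bases before to 50 after the start), which held 33 of the 48 members. The first is the Cyp8b1 promoter, chr9:121916256-121916555, minus strand, with the element CAAAGTCCA, a binding sequence of the hepatocyte receptor HNF4, in capitals.
Cyp8b1: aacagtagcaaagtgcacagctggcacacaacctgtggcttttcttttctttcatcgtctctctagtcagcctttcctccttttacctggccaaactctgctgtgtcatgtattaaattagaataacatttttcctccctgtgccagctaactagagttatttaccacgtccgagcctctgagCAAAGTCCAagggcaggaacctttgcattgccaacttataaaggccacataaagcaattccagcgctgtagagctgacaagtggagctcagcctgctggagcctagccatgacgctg

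Fatty acid and eicosanoid genes moved both ways in Setd8-LKO + TCPOBOP, as did all tested genes (50.5% called higher and 34.6% lower). Of 15 tested members 4 rose, 7 fell and 4 were not called. The largest falls were of Cyp4f14 and Cyp2u1. Cyp4f14 (ENSMUSG00000024292, chr17:32905070-32917342), a leukotriene and fatty acid omega-hydroxylase, had 6492, 7471, 5065, 4087 and 5578 normalized counts in untreated WT. It had 2154, 1858, 1828, 2690 and 1919 in WT + TCPOBOP and 327, 310, 507 and 570 in Setd8-LKO + TCPOBOP. The groups formed 3 separate levels. The log2 fold change was −3.74 (SE 0.28, edgeR adjusted p 1.55e-05), a 13.4-fold lower mean, and −1.46 (SE 0.20, edgeR adjusted p 0.00338) in WT + TCPOBOP. Cyp2u1, a hydroxylase of long-chain fatty acids, had 1116, 1079, 605, 719 and 602 in untreated WT, 217, 179, 200, 447 and 261 in WT + TCPOBOP, and 50, 56, 87 and 56 in Setd8-LKO + TCPOBOP. Again the groups did not overlap. It fell by 3.71 on the log2 scale (SE 0.29, edgeR adjusted p 2.09e-05) in Setd8-LKO + TCPOBOP and by 1.66 (SE 0.30, edgeR adjusted p 0.0226) in WT + TCPOBOP, where 4 of 10 fits without 1 library kept the call and the adjusted p reached 0.0882 without WT + TCPOBOP replicate 1.

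Cyp4v3, a fatty acid hydroxylase, stood at a similar level in both treated groups. It had 9481, 10717, 9917, 7960 and 8476 normalized counts in untreated WT, 3471, 3551, 3689, 4052 and 3806 in WT + TCPOBOP, and 2653, 2246, 3907 and 3901 in Setd8-LKO + TCPOBOP. Both treated groups lay below every untreated library and overlapped each other. The log2 fold change was −1.55 (SE 0.21, edgeR adjusted p 0.000663) in Setd8-LKO + TCPOBOP and −1.33 (SE 0.14, edgeR adjusted p 0.00064) in WT + TCPOBOP. Cyp4f15, related to the leukotriene hydroxylases, went up in WT + TCPOBOP, with 3188, 3203, 3726, 2561 and 3967 in untreated WT and 6660, 7371, 6575, 7167 and 6320 after treatment (1.03, SE 0.15, edgeR adjusted p 0.0061). Its sign turned under both other scalings (−0.15 and −0.22), and without untreated WT replicate 4 its change of 0.95 was under the threshold.

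The Cyp4a genes, fatty acid omega-hydroxylases that PPARalpha controls, did not move as a unit. Cyp4a14 had 152, 447, 1794, 585 and 1121 normalized counts in untreated WT and 4374, 4795, 14085 and 6784 in Setd8-LKO + TCPOBOP. Every Setd8-LKO library was above every untreated one, with replicate 3 the highest, and the log2 fold change was 3.20 (SE 0.63, edgeR adjusted p 0.00853), or 9.16-fold, with 2.54 within run A and 4.69 within run B. Cyp4a31 rose from 215, 278, 353, 303 and 280 to 893, 1041, 1286 and 943 (1.86, SE 0.18, edgeR adjusted p 6.33e-05). Cyp4a12a, the male-predominant Cyp4a hydroxylase, had 8000, 7155, 6770, 6218 and 8933 in untreated WT and 150, 85, 2375 and 168 in Setd8-LKO + TCPOBOP. Replicate 3 was at 2375, far above the other 3 Setd8-LKO libraries and still below untreated WT. With it the log2 fold change of −3.42 (SE 0.94) was not called (edgeR adjusted p 0.0673), and without it the change was −5.78 (edgeR adjusted p 7.21e-06). Cyp4a12b, 49.4% of whose 50-base transcript windows it shares with other genes, followed the same pattern with 3788 to 5735 against 271, 144, 2230 and 233 (−2.76, edgeR adjusted p 0.0654, and −4.50 without replicate 3).

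Other members of the group were of lower level or smaller change. Cyp4b1, a fatty acid hydroxylase that also activates furan toxicants, had 414, 427, 491, 339 and 430 normalized counts in untreated WT and 94, 98, 178 and 131 in Setd8-LKO + TCPOBOP, without overlap (−1.75, SE 0.22, edgeR adjusted p 0.000423). The epoxygenases Cyp2j5 (9117, 10228, 9293, 8469 and 9914 against 1715, 1602, 5181 and 3692) and Cyp2j11 (23, 20, 29, 20 and 29 against 4, 7, 13 and 4) fell by 1.63 (edgeR adjusted p 0.0119) and 1.76 (edgeR adjusted p 0.0116) on the log2 scale. In both, Setd8-LKO replicate 3 was the highest of its group. Cyp4f16 rose from 71, 81, 71, 57 and 76 to 243, 192, 199 and 233 (1.60, SE 0.17, edgeR adjusted p 0.000155). Cyp4f37, at 4, 14, 7, 9 and 7 against 36, 29, 14 and 32, was called (1.76, edgeR adjusted p 0.0134) although the groups touch at 14, and the call was lost without Setd8-LKO replicate 1 (1.61, adjusted p 0.0545). Cyp4f13 fell (−1.15). Cyp4f18 (1.33) and Cyp2j9 (−1.33) were not called, and each was called without Setd8-LKO replicate 3 (1.57 and −2.18).

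Drug and toxicant oxidizing genes, with pseudogenes placed here by name, moved both ways in Setd8-LKO + TCPOBOP. Of 21 tested members 9 rose, 8 fell and 4 were not called. Over all tested genes 50.5% were called higher and 34.6% lower. In WT + TCPOBOP 11 of 12 members of this role rose and 1, Cyp1a1, was not called, where 51.4% of all tested genes were called higher. With DESeq2 size factors or TMM factors over the listed genes, only 1 member of any role was called higher. The Cyp3a genes, which oxidize steroids and many drugs, form a cluster on chromosome 5 (145345279 to 146113287, 768 kb) whose 9 annotated P450 genes were all members. In order along the chromosome, Cyp3a57 fell (−1.25), Cyp3a16 rose (2.02), Cyp3a41b was not called (1.42), Cyp3a63-ps (6.03), Cyp3a41a (1.99), Cyp3a44 (2.08) and Cyp3a11 (1.35) rose, and Cyp3a25 (−1.07) and Cyp3a59 (−1.10) fell. The inner 6 genes were thus positive and the 3 genes at the ends negative. The calls at the ends were less firm for Cyp3a25, kept in 3 of 9 fits without 1 library (edgeR adjusted p up to 0.0816, without Setd8-LKO replicate 2), and for Cyp3a59, kept in 6 of 9 (up to 0.0581, without Setd8-LKO replicate 1). Cyp3a25 and Cyp3a59 also share 25% and 24.7% of their 50-base transcript windows with each other, so their reads may be mixed.

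Cyp3a11 (ENSMUSG00000056035, chr5:145854426-145879964), the main adult hepatic Cyp3a enzyme, had 49706, 75969, 95301, 88069 and 120069 normalized counts in untreated WT. It had 322753, 371372, 323466, 401487 and 397726 in WT + TCPOBOP and 181782, 197699, 256947 and 236705 in Setd8-LKO + TCPOBOP. All treated libraries were above all untreated ones, and Setd8-LKO + TCPOBOP lay between the other groups. The log2 fold change was 2.08 (SE 0.23, edgeR adjusted p 0.00108) in WT + TCPOBOP and 1.35 (SE 0.28, edgeR adjusted p 0.0109) in Setd8-LKO + TCPOBOP. The pseudogene Cyp3a63-ps had 2, 6, 4, 5 and 8 in untreated WT, 41, 45, 28, 35 and 37 in WT + TCPOBOP, and 477, 266, 84 and 522 in Setd8-LKO + TCPOBOP. The groups did not overlap, and Setd8-LKO replicate 3 was the lowest of its group. The means were 67.5-fold (log2 6.03, SE 0.57, edgeR adjusted p 6.63e-05) and 7.44-fold (log2 2.85, SE 0.31, edgeR adjusted p 0.000863) above untreated WT. It shares 21.5% of its 50-base transcript windows with other genes, so some of its reads may come from its neighbours.

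The female-predominant or neonatal Cyp3a16, Cyp3a41a, Cyp3a41b and Cyp3a44 were low in untreated males and higher in both treated groups. Cyp3a16 had 709, 1557, 1391, 1714 and 359 normalized counts in untreated WT, 4894, 11206, 4903, 9264 and 5983 in WT + TCPOBOP, and 5519, 5113, 4162 and 3751 in Setd8-LKO + TCPOBOP. Cyp3a44 had 381, 832, 1664, 2564 and 1962, then 6447, 14128, 8016, 12823 and 13447, and then 7079, 5436, 6290 and 6263. Treated and untreated libraries did not overlap in either gene. Cyp3a16 rose by 2.66 (SE 0.43, edgeR adjusted p 0.0114) in WT + TCPOBOP and 2.02 (SE 0.39, edgeR adjusted p 0.00779) in Setd8-LKO + TCPOBOP, and Cyp3a44 by 2.89 (SE 0.47, edgeR adjusted p 0.0117) and 2.08 (SE 0.44, edgeR adjusted p 0.0136). Within runs A and B the change of Cyp3a44 was 2.21 and 4.43 in WT + TCPOBOP and 1.60 and 3.37 in Setd8-LKO + TCPOBOP. Cyp3a41a had 807, 1183, 1764, 1450 and 1916 in untreated WT, 7338, 6547, 5185, 6344 and 6469 in WT + TCPOBOP, and 6015, 4319, 4251 and 8030 in Setd8-LKO + TCPOBOP. Its copy Cyp3a41b had 807, 1575, 2681, 1807 and 3617, then 13827, 25250, 7446, 15828 and 17040, and then 5847, 4994, 4070 and 7603. The copies share 98.6% and 93.5% of their 50-base windows with other genes, mainly each other, so how reads were divided between them is uncertain. Cyp3a41a rose in both groups (2.16, edgeR adjusted p 0.000853, and 1.99, edgeR adjusted p 0.00091), and Cyp3a41b in WT + TCPOBOP (2.92, SE 0.42, edgeR adjusted p 0.00565) with an adjusted p of 0.0501 by edgeR in Setd8-LKO + TCPOBOP, where it was called with the run as a term (1.85, edgeR adjusted p 0.00266) and in 3 of 9 fits without 1 library. Cyp3a13, which lies outside the cluster on chromosome 5, was listed for WT + TCPOBOP and rose from 2537, 2445, 4384, 5024 and 3380 to 16561, 16526, 14536, 9009 and 12495 (1.96, SE 0.26, edgeR adjusted p 0.00285).

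The promoters of 3 Cyp3a members are shown to compare genes that rose together. The element CAAAGTCCA, searched on both strands, was found in the windows of Cyp3a11, Cyp3a16, Cyp3a41a, Cyp3a41b and Cyp8b1, 5 of 33 members (15.2%). The share was 0.555% of all 27025 genes with a promoter window, where a gene counted if any of its windows held the element. Of these genes 4 are related copies and rose or had positive values, and Cyp8b1 fell. Windows of Cyp3a41a (chr5:145720087-145720386) and Cyp3a44 (chr5:145805825-145806124) were 92.3% identical position by position, and those of Cyp3a41a and Cyp3a41b 97.3%. At the place of the element Cyp3a44 had CAAAGTACA, a C7A substitution counted from the 5′ end of the element with the Cyp3a41a base first. Both windows and that of Cyp3a11 (chr5:145879805-145880104) lie on the minus strand, and capitals mark the element or its counterpart.
Cyp3a11: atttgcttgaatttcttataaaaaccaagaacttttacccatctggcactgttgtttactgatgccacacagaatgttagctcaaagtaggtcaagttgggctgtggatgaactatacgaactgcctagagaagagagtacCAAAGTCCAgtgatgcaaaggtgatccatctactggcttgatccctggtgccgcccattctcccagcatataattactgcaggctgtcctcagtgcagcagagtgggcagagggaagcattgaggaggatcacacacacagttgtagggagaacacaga
Cyp3a41a: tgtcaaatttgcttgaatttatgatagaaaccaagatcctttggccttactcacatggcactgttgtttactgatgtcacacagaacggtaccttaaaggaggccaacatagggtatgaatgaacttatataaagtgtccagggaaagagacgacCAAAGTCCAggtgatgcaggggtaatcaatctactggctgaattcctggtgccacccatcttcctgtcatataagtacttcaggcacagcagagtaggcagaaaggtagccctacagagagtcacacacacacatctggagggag
Cyp3a44: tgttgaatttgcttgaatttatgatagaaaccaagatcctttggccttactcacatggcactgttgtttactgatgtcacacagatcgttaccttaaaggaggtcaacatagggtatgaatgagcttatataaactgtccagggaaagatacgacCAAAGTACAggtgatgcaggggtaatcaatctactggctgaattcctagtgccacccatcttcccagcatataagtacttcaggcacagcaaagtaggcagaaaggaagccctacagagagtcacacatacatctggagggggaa

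Other motifs were searched in the same windows on both strands. TATAAA was present in 16 of 33 members (48.5%, against 15.7% of all genes with a window) and AGGTCA, the core to which many nuclear receptors bind, in 10 (30.3%, against 18.1%). TTCNNNGAA, bound by STAT factors, was found in 3 (9.09%, against 9.55%), GTTAAT of HNF1 in 3 (9.09%, against 8.24%), CACGTG in 1 (3.03%, against 8.09%) and GCGTG, the core bound by the Ah receptor, in 7 (21.2%, against 35.2%). A match is a description of the letters and not a site in use, and copies of one ancestral promoter are not independent.

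Cyp2a genes, which oxidize coumarin, nicotine and testosterone, rose in both treated groups with the authors' scaling, while Cyp2a21-ps turned negative in WT + TCPOBOP under the others. Cyp2a5 (ENSMUSG00000005547, chr7:26835305-26843548) had 9968, 10018, 5216, 4913 and 8742 normalized counts in untreated WT, 26191, 28410, 26463, 24422 and 15289 in WT + TCPOBOP, and 24724, 25881, 21813 and 57453 in Setd8-LKO + TCPOBOP. Cyp2a4 had 2230, 1789, 1410, 829 and 1933, then 4927, 5289, 4905, 5002 and 2999, and then 6175, 6318, 5553 and 15698. Neither gene overlapped between untreated and treated libraries, Setd8-LKO replicate 4 was far above its group, and WT + TCPOBOP replicate 5 was lowest in its own. Cyp2a5 rose by 2.06 (SE 0.35, edgeR adjusted p 0.00304) in Setd8-LKO + TCPOBOP and 1.64 (SE 0.26, edgeR adjusted p 0.0106) in WT + TCPOBOP, and Cyp2a4 by 2.36 (SE 0.37, edgeR adjusted p 0.00181) and 1.50 (SE 0.26, edgeR adjusted p 0.0208). The pseudogene Cyp2a21-ps was at 1910 to 3148, 3904 to 6149 and 4733 to 12054 in the 3 groups in the same order, and rose by 1.47 (edgeR adjusted p 0.0107) in Setd8-LKO + TCPOBOP and 1.14 (edgeR adjusted p 0.0203) in WT + TCPOBOP. Without Setd8-LKO replicate 4 all 3 remained called there, with log2 fold changes of 1.64 for Cyp2a5, 1.88 for Cyp2a4 and 1.05 for Cyp2a21-ps. Within runs A and B the change in Setd8-LKO + TCPOBOP was 3.19 and 1.27 for Cyp2a5, 3.50 and 1.58 for Cyp2a4, and 2.54 and 0.73 for Cyp2a21-ps. In WT + TCPOBOP the calls of Cyp2a4 and Cyp2a21-ps were each kept in 4 of 10 fits without 1 library, with edgeR adjusted p up to 0.0709 (without untreated WT replicate 3) and 0.0707 (without WT + TCPOBOP replicate 3), and Cyp2a21-ps turned to −0.044 and −0.12 under the other 2 scalings. The 3 genes share 38.0% (Cyp2a4), 40.8% (Cyp2a5) and 27% (Cyp2a21-ps) of their 50-base windows with other genes.

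Cyp2f2 (ENSMUSG00000052974, chr7:27119909-27133660), the enzyme that activates naphthalene, lies beside the Cyp2a genes and had the opposite direction. It had 32537, 31374, 28460, 25432 and 27678 normalized counts in untreated WT and 2011, 1426, 3849 and 4339 in Setd8-LKO + TCPOBOP. The groups were far apart, with a mean of 29096 ± 2867 (SD, n = 5) against 2906 ± 1406 (SD, n = 4). The log2 fold change was −3.32 (SE 0.34, edgeR adjusted p 0.000115). The promoters of Cyp2a5 (chr7:26835089-26835388, plus strand, TATAAA in capitals) and Cyp2f2 (chr7:27119705-27120004, plus strand, AGGTCA in capitals) are given as neighbours that moved apart.
Cyp2a5: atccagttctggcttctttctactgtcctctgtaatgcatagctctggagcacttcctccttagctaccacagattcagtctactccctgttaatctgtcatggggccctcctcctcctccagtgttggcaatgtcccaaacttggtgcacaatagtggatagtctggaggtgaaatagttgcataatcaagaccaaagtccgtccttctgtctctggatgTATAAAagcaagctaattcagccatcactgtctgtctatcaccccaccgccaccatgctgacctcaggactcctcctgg
Cyp2f2: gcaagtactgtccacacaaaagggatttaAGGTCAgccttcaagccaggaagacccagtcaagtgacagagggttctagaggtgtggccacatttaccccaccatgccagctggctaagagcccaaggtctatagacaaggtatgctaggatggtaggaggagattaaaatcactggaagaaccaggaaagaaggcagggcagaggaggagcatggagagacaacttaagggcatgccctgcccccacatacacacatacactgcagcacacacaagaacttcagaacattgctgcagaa

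Cyp2e1, the ethanol and acetaminophen oxidizing enzyme of central hepatocytes, had 105925, 120250, 44438, 74302 and 49505 normalized counts in untreated WT and 15438, 18603, 27045 and 35255 in Setd8-LKO + TCPOBOP. Groups did not overlap, and untreated WT differed by run, with replicates 1 and 2 (run B) above the rest. The log2 fold change was −1.71 (SE 0.38, edgeR adjusted p 0.0175), −0.67 within run A and −2.47 within run B, and the call was lost without Setd8-LKO replicate 1 (−1.55, adjusted p 0.0647) or 2 (−1.61, adjusted p 0.07). Cyp2d9, a male-predominant testosterone hydroxylase, showed the same run order in untreated WT, with 31566, 38795, 14324, 22639 and 15723 against 6883, 7370, 16147 and 12197. Its groups overlapped and it was not called (−1.21, edgeR adjusted p 0.123). Of the 6 tested Cyp2d members, 3 fell and 3 were not called (log2 fold changes −1.51 to −1.09). They include relatives of the human debrisoquine hydroxylase and pseudogenes. Over all tested genes 34.6% were called lower. Among all 43 members of this comparison, untreated WT values of run B were all above those of run A for 11 and all below for 10, against 14.6% and 19.0% of all listed genes.

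The Cyp1 genes, targets of the Ah receptor, were listed in one table each. Cyp1a2, which oxidizes caffeine and aromatic amines, had 15240, 12305, 5667, 7845 and 7350 normalized counts in untreated WT and 27854, 20992, 24808, 30138 and 25986 in WT + TCPOBOP. Treated libraries were all higher, and the call (1.42, SE 0.27, edgeR adjusted p 0.0294) was kept in 3 of 10 fits without 1 library, with an adjusted p up to 0.0909, without untreated WT replicate 5. Its neighbour Cyp1a1, which oxidizes polycyclic hydrocarbons, had 404, 317, 134, 207 and 185 against 639, 501, 570, 803 and 722 and was not called (1.38, SE 0.29, edgeR adjusted p 0.0679), but was called with the run as a term (1.45, adjusted p 0.00472) and without untreated WT replicate 1 (1.62, adjusted p 0.0227). Cyp1b1 is an enzyme of estrogens and hydrocarbons that liver expresses mostly outside hepatocytes. It had 8, 6, 14, 9 and 11 in untreated WT and 82, 75, 36 and 29 in Setd8-LKO + TCPOBOP. This rise was called (2.47, SE 0.39, edgeR adjusted p 0.00177), with 1.26 in run A and 2.97 in run B. A link to the stellate and fibroblast markers, of which Lrat was not listed in this comparison, was not tested.

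The steroid and retinoid members were few. Cyp21a1, the adrenal steroid hydroxylase, was low in liver and fell in Setd8-LKO + TCPOBOP from 48, 39, 87, 90 and 68 normalized counts to 24, 23, 9 and 15 (−1.90, SE 0.37, edgeR adjusted p 0.00779). Its pseudogene Cyp21a2-ps, which shares 35.7% of its 50-base windows with other genes, had 77, 71, 143, 272 and 125 against 57, 31, 41 and 46 (−1.66, edgeR adjusted p 0.0325), a call kept in 3 of 9 fits without 1 library and lost with an adjusted p of 0.125 without Setd8-LKO replicate 2 and of 0.144 with the run as a term (−1.22). Cyp26b1, a retinoic acid hydroxylase, had 270, 203, 310, 180 and 111 in untreated WT, 37, 38, 69, 33 and 17 in WT + TCPOBOP, and 76, 21, 54 and 104 in Setd8-LKO + TCPOBOP. Both treated groups lay below untreated WT. It fell by 2.46 on the log2 scale (SE 0.39, edgeR adjusted p 0.00917) in WT + TCPOBOP and by 1.75 (SE 0.43, edgeR adjusted p 0.0373) in Setd8-LKO + TCPOBOP, where 2 of 9 fits without 1 library kept the call and the adjusted p was 0.11 without Setd8-LKO replicate 3 and 0.0587 with the run as a term. Within runs A and B its change there was −0.93 and −2.21. Its relative Cyp26a1, the main hepatic retinoic acid hydroxylase, had 473, 344, 561, 326 and 866 against 1351, 1178, 2900, 1857 and 1206 in WT + TCPOBOP (1.72, SE 0.34, edgeR adjusted p 0.0396), the direction opposite to Cyp26b1, and 1 of 10 fits without 1 library kept this call (adjusted p 0.126 without untreated WT replicate 1).

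The third comparison set Setd8-LKO + TCPOBOP against WT + TCPOBOP, the groups with equal treatment, over the 506 genes listed in both tables. Of 14 members 4 were called by edgeR's quasi-likelihood test, 3 lower and 1 higher, where 24.9% of all tested genes were called, 15.8% lower and 9.09% higher. The median log2 fold change was −0.44 over members and −0.23 over all 506 genes. Groups did not overlap for 4 members on the lower side (30.8% of all genes) and 2 on the higher side (19.0%), and 7 members had an exact permutation p under 0.05 (two-sided), against 58.5% of the 506 genes. The same sign was seen in both runs for 12 of 14. The members called lower were Cyp7b1 (−2.89, SE 0.41, edgeR adjusted p 0.00236), with a mean 7.40-fold lower (−3.49 without Setd8-LKO replicate 3), Cyp4f14 (−2.29, SE 0.25, edgeR adjusted p 0.000164), 4.88-fold lower, and Cyp2u1 (−2.06, SE 0.32, edgeR adjusted p 0.00694), 4.19-fold lower. The Cyp2u1 call was lost without Setd8-LKO replicate 1 (−1.96, adjusted p 0.0529) or 2 (−2.01, adjusted p 0.0503). Cyp3a63-ps was called higher (3.18, SE 0.43, edgeR adjusted p 0.0015), 9.07-fold.

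The other 10 members did not pass, and the test does not show that they were equal. Cyp3a11 was lower in every Setd8-LKO + TCPOBOP library than in every WT + TCPOBOP library (−0.74, SE 0.23), but passed neither the threshold on size nor that on the edgeR adjusted p, which was 1. The other Cyp3a genes had −1.50 (SE 0.40) for Cyp3a41b, −0.81 (SE 0.42) for Cyp3a44, −0.65 (SE 0.39) for Cyp3a16 and −0.17 (SE 0.25) for Cyp3a41a. Cyp3a41b passed when p-values were adjusted over the 506 tested genes only, an alternative added after seeing the data. Cyp2a4 was higher in every Setd8-LKO + TCPOBOP library (5553 to 15698) than in every WT + TCPOBOP library (2999 to 5289). Its change of 0.87 (SE 0.33) was not called, and the lowest value in a fit without 1 library was 0.38. Cyp2a5 (0.43, SE 0.31) and Cyp2a21-ps (0.33, SE 0.28) were higher on the mean, and without Setd8-LKO replicate 4 Cyp2a21-ps was at −0.085 and Cyp2a5 near 0. Cyp4v3 (−0.23, SE 0.18) and Cyp26b1 (0.72, SE 0.45) overlapped between the groups.

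**Figure D3:**
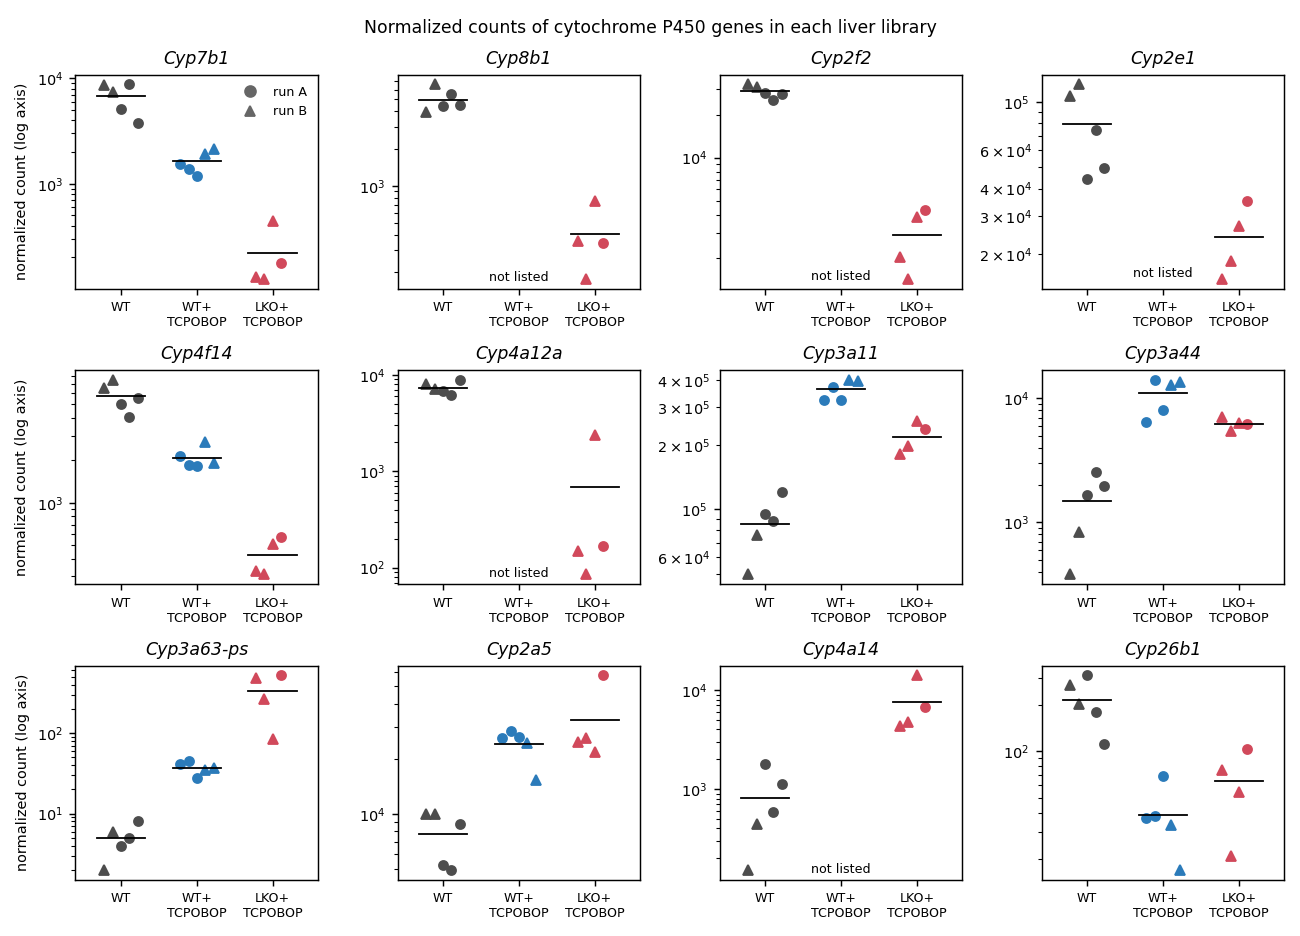
Normalized counts (log axis) of 12 members in every library, by group, with run A as circles and run B as triangles and a bar at each group mean. Cyp7b1 and Cyp4f14 fall in steps from untreated WT over WT + TCPOBOP to Setd8-LKO + TCPOBOP, Cyp3a11 is highest in WT + TCPOBOP, and Cyp3a63-ps is highest in Setd8-LKO + TCPOBOP.

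The 4 Setd8-LKO + TCPOBOP libraries did not contribute alike. Among the 27 tested members with a negative log2 fold change, replicate 3 was the highest of the 4 for 16 and replicate 2 the lowest for 14. Among the 15 with a positive one, replicates 1 and 4 were each highest for 6 and replicate 3 was lowest for 7. The number of members called was 27 without replicate 1 and likewise without replicate 2, 36 without replicate 3 and 31 without replicate 4. Over all tested genes the share called moved likewise, at 72.3%, 72.2%, 83.7% and 78.0%.

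**Figure D4:**
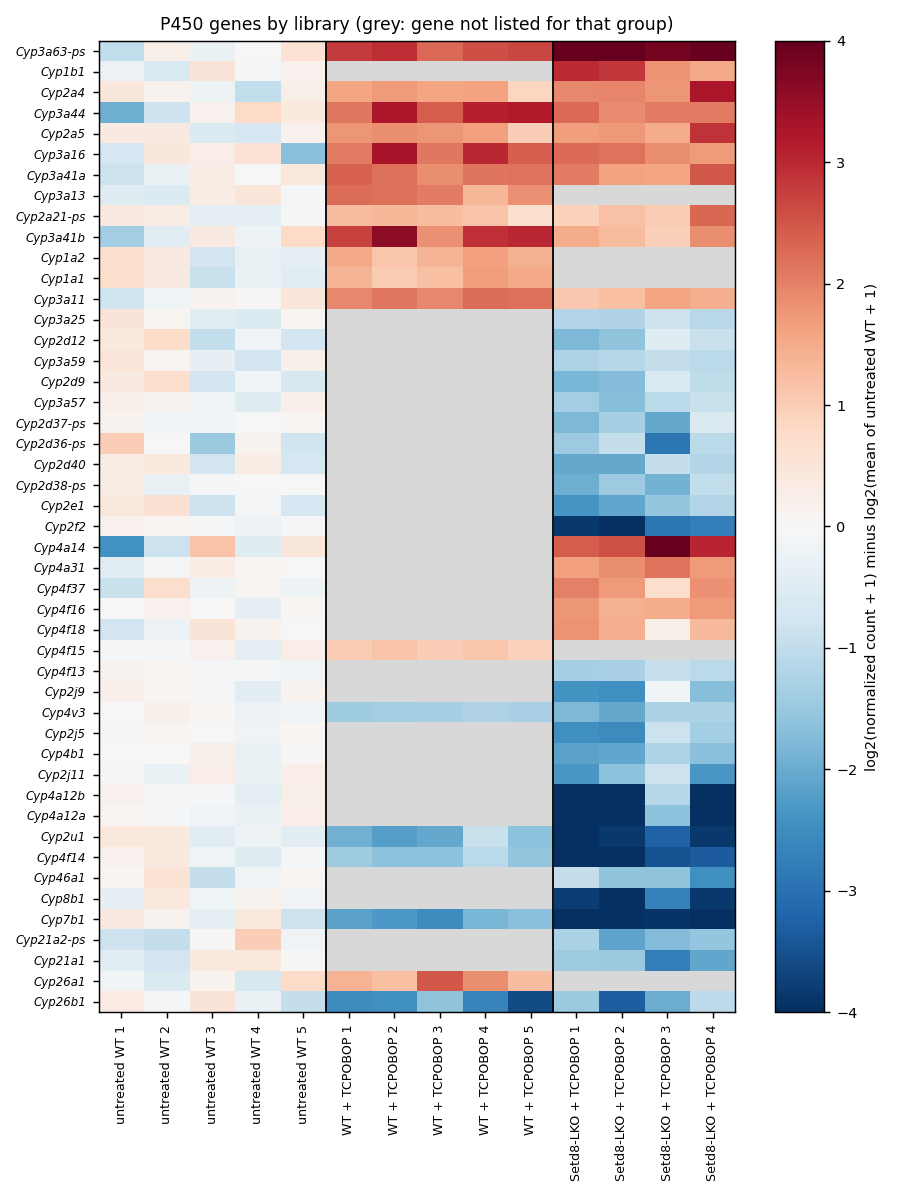
Log2 ratio of each library's normalized count to the mean of untreated WT, for 47 members grouped by role, with libraries in columns by group and colours capped at 4 in either direction. Setd8-LKO + TCPOBOP replicate 3 is paler than the other Setd8-LKO libraries for the Cyp4a12 genes and Cyp2j9, and replicate 4 is darker for the Cyp2a genes.

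Neighbouring members differed in direction in some clusters in Setd8-LKO + TCPOBOP and not in others. How often other neighbouring genes differ was not tested. On chromosome 4 (115299046 to 115647723) Cyp4a14 and Cyp4a31 rose between Cyp4a12b, which had a negative value, and Cyp4b1, which fell, and these 5 members are among 11 annotated P450 genes of that stretch. On chromosome 17 (32536558 to 32947402), where 5 of 6 annotated P450 genes were members, Cyp4f16 and Cyp4f37 rose while Cyp4f14 and Cyp4f13 fell. Cyp4f16 and Cyp4f37 share 24.8% and 20.9% of their 50-base transcript windows with each other, so their reads may be mixed. On chromosome 15 (82433437 to 82764183) 7 of 12 annotated P450 genes were members, and the 6 tested had negative values. The 3 Cyp2j members on chromosome 4 (−1.76 to −1.33) were all negative, and both Cyp21 members on chromosome 17 fell.

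Genes that act with the P450 enzymes were taken from lists by function. Of 8 redox partners 2 were listed for Setd8-LKO + TCPOBOP: Por, the reductase that feeds the microsomal enzymes, rose from 4448 to 6942 in untreated WT to 22615 to 31614 (2.17, edgeR adjusted p 6.07e-05), and Cyb5b, an outer mitochondrial cytochrome, fell (−1.68, edgeR adjusted p 5.38e-05). In WT + TCPOBOP both listed partners rose, Por to 27977 to 38268 (2.51, edgeR adjusted p 5.3e-05) and Cyb5a (1.43, edgeR adjusted p 0.0038). Of 21 receptors and regulators 7 were listed for Setd8-LKO + TCPOBOP, of which Cux2 was not called (1.11, edgeR adjusted p 0.082). Ahr, the receptor of the Cyp1 genes (1.87), and Nfe2l2 (1.00) rose, and Ppara, the receptor of the Cyp4a genes (−1.53), Fgfr4 (−1.11) and Klb (−2.29), which together carry the signal that restrains bile acid synthesis, and Bcl6 (−1.46), a repressor of female-predominant genes, fell. Of 3 listed for WT + TCPOBOP 1 was called, Ahr (1.68). Of 11 genes of heme synthesis and breakdown, Alas1, the first enzyme of synthesis, rose from 8406 to 12566 in untreated WT to 16787 to 28993 in Setd8-LKO + TCPOBOP (1.14, edgeR adjusted p 0.00634) and 36064 to 44429 in WT + TCPOBOP (1.88, edgeR adjusted p 0.00013), and Hmox1, which degrades heme, rose in Setd8-LKO + TCPOBOP (1.71, edgeR adjusted p 0.00555).

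Chromatin was described from 1 peak list per assay and condition, untreated WT and Setd8-LKO + TCPOBOP, in which replicates are not separate, so no difference between lists was tested. H3K27ac is a histone mark of active promoters and enhancers, and ATAC-seq marks DNA open to a transposase. Within 1000 bases of a start, 20 of 48 members had an H3K27ac peak in both lists, 2 (Cyp2f2 and Cyp4f14) in untreated WT only, 2 (Cyp2a5 and Cyp2d37-ps) in Setd8-LKO only and 24 in neither, against 53.5%, 0.948%, 5.27% and 40.3% of 21938 protein-coding genes. ATAC peaks were in both lists for 16 members, in untreated WT only for 6 (Cyp2a21-ps, Cyp2f2, Cyp2j9, Cyp3a25, Cyp3a57 and Cyp4f37), in Setd8-LKO only for 2 (Cyp3a11 and Cyp2d37-ps) and in neither for 24, against 35.9%, 7.22%, 1.14% and 55.8% of protein-coding genes. The 48 members include 7 pseudogenes, which the shares of protein-coding genes here and below leave out. The lists were of unlike length for ATAC, with 27307 peaks in untreated WT and 23386 in Setd8-LKO, and alike for H3K27ac (27983 and 27752).

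Peaks and RNA went the same way for some members only. Counting a missing peak as 0, the strongest H3K27ac peak was weaker in Setd8-LKO for 9 and stronger for 6 of the 15 members called lower that had one, and weaker for 1 and stronger for 2 of the 3 called higher. For ATAC it was weaker for 10 and stronger for 4 of 14 called lower, and weaker for 3 and stronger for 2 of 5 called higher. The same counts were not made over all called genes, and the ATAC list was shorter in Setd8-LKO. These counts therefore cannot tell the members from other genes. Cyp2f2 had an H3K27ac peak of 8.07-fold enrichment and an ATAC peak of 4.20-fold (chr7:27119767-27119930, inside the promoter printed above) in untreated WT and neither in Setd8-LKO. The H3K27ac peak of Cyp4f14 (12.2-fold) was absent from the Setd8-LKO list, Cyp8b1 had 21 in untreated WT and 7.83 in Setd8-LKO, and Cyp2u1 48.8 and 24.5. Cyp2a5 had an H3K27ac peak in Setd8-LKO only (10.2-fold). Cyp3a11 had an ATAC peak in Setd8-LKO only (3.09-fold, −log10 p 18.5), but in both lists with a window of 2500 bases and in neither at a −log10 p of 20, and its H3K27ac peak was 11.6 in untreated WT and 9.75 in Setd8-LKO. Other members did not follow or went against their RNA. Cyp2d37-ps, which fell, had H3K27ac (7.46-fold) and ATAC (3.63-fold, −log10 p 17.4) peaks in Setd8-LKO only. With a window of 2500 bases it had ATAC peaks in both lists, and at a −log10 p of 20 in neither. Its H3K27ac peaks overlap the neighbouring gene Cyp2d38-ps. Cyp2a21-ps and Cyp4f37, which rose, had ATAC peaks in untreated WT only (9.37-fold and 7.19-fold). H3K27ac was 9.67 in untreated WT and 17.5 in Setd8-LKO at Cyp26b1 and 12.6 and 15.8 at Cyp2j5, both of which fell. Cyp7b1 kept a peak of 34.3-fold, against 38.7 in untreated WT, while its RNA was 30.8-fold lower, and Cyp4f14 had ATAC peaks in both lists.

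Of the 13 members called higher in Setd8-LKO + TCPOBOP, 10 had no H3K27ac peak in either list, against 31.8% of all 1879 genes called higher that could be placed. These include Cyp3a16, Cyp3a41a, Cyp3a44, Cyp4a14 and Cyp2a4. Of the genes just named, Cyp3a41a (98.6%), Cyp2a4 (38.0%), Cyp3a44 (26.5%) and Cyp3a16 (10.7%) share 50-base windows with other genes, but Cyp4a14 hardly does (0.245%). These windows are of transcripts and not of promoters. Per the methods only reads of high mapping quality were kept. The part of this in the missing peaks was not tested. Of the 21 called lower, 6 had none, against 27.5% of all 1283 genes called lower. Peaks of CTCF, which binds insulators, were at the starts of 1 member in both lists and 5 in Setd8-LKO only, against 6.49% and 36.7% of protein-coding genes. Peaks of Smc3, a cohesin subunit, were at 3 in both, 3 in untreated WT only and 8 in Setd8-LKO only, against 16.3%, 0.962% and 42% of protein-coding genes. Both lists were longer in Setd8-LKO, with 20905 against 5838 CTCF peaks and 21615 against 13045 Smc3 peaks. Islands of Lamin A/C, a protein of the nuclear lamina, lay over 0 of the 48 members in either list (13.0% and 10.7% of protein-coding genes). Islands of H4K20me3, the trimethyl mark built on the monomethyl mark of Setd8, lay over 1 member in untreated WT (Cyp2j11) and 7 in Setd8-LKO (Cyp2j11, Cyp21a1, Cyp2d12, Cyp2d9, Cyp2e1, Cyp3a25 and Cyp3a41a), against 11.1% and 11.4% of protein-coding genes.

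**Figure D5:**
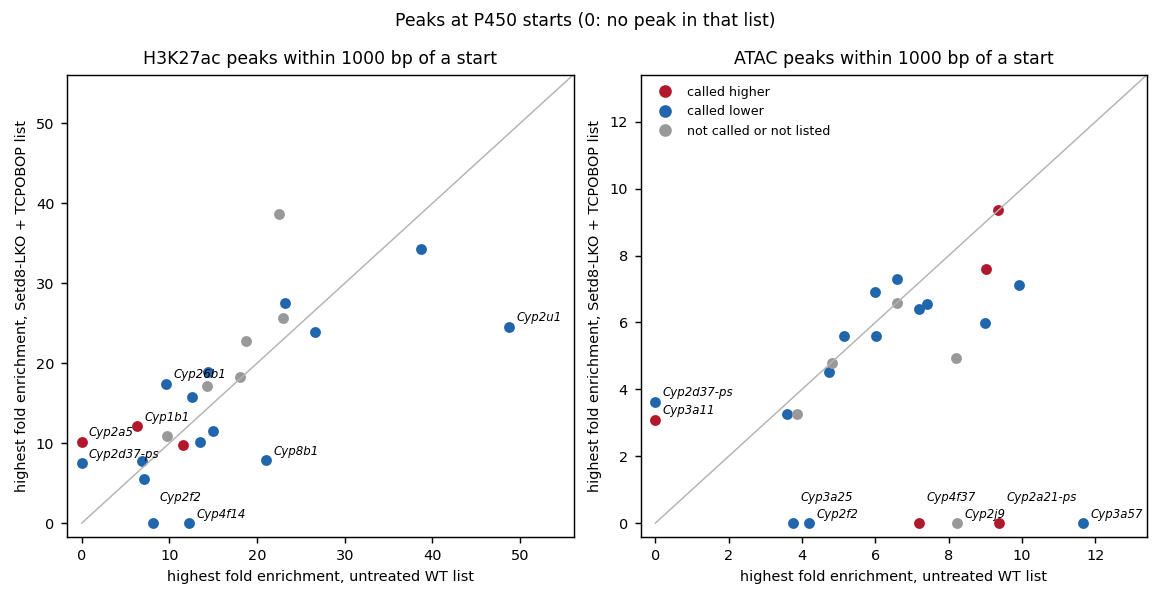
Fold enrichment of the strongest H3K27ac and ATAC peak within 1000 bases of the start, untreated WT against Setd8-LKO + TCPOBOP, with 1 point per member and members without a peak in one list on that axis. Cyp2f2 and Cyp4f14 have H3K27ac in untreated WT only, and Cyp2a5 in Setd8-LKO only.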

How the data were processed

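RNA-seq libraries of 5 untreated WT, 5 WT + TCPOBOP and 4 Setd8-LKO + TCPOBOP livers were used. Per the methods, reads were filtered with PRINSEQ, mapped to mm10 with HISAT2 and counted with metaseqR. The authors deposited raw read counts per gene and normalized counts, the latter a score equal to the raw count times 1 factor per library, rounded to whole numbers, for genes they had selected as changed (3900 in the Setd8-LKO + TCPOBOP table, 719 in the other). Columns of their own fold changes and p-values, and 114 per-library columns of other kinds or samples, were not used. Since total depth is not in these tables, library sizes were taken as 40000000 reads over the authors' factor. Raw counts were tested with edgeR 4.0.16 (R 4.3.3, quasi-likelihood test, filterByExpr with a minimum count of 10), with Benjamini-Hochberg adjustment over 55450 GENCODE M21 genes, as the unlisted genes were part of the selection. DESeq2 1.42.0 served as an alternative. Exact permutation tests (computed with numpy 2.4.6) were two-sided, on the difference of mean normalized counts.

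The authors deposited MACS2 2.2.7.1 peaks for H3K27ac, ATAC, CTCF and Smc3 with fold enrichment (a ratio) and −log10 p, and SICER islands with a score for Lamin A/C and H4K20me3, from reads trimmed with Trimmomatic 0.39, with tracks made by deepTools 3.3.2, as the submitters' processing notes and the methods state. The methods give a reduction to equal read numbers for ChIP and CUT&Tag samples, not for ATAC. Replicates were not separate in these lists. Coordinates are GRCm38 (mm10).

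Genes named with values in every library were all members of the WT + TCPOBOP table, all called higher in Setd8-LKO + TCPOBOP, the 12 called lower with the largest falls among those whose groups did not overlap, and a fixed set of well-known members where listed. Others named were chosen after their values were seen. Members, lists, roles and motifs were chosen with earlier results of these data known. The tables hold only genes selected on the same libraries, so counts of calls are not independent of that selection. Alternatives were other scalings, DESeq2, no filter, adjustment over tested genes, the sequencing run as a term, ratios of mean normalized counts within each run (no test), a replicate block and leaving out each library, and for peaks another window, a stricter −log10 p and the peak summit.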

Additional observations from a re-analysis of the deposited data

Results flagged for a closer look

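A value was marked where 1 library stood apart from its group by Dixon's criterion at 95%, over 82 groups of 4 or 5 libraries of the 34 named members. Such values numbered 7 (8.54%), where chance gives about 5%.

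Setd8-LKO + TCPOBOP replicate 4, the only library of that group in run A, stood apart for Cyp2a4 (15698 normalized counts against 5553 to 6318 in the other 3), Cyp2a5 (57453 against 21813 to 25881) and Cyp2a21-ps (12054 against 4733 to 5614). These genes share sequence, so they are not 3 independent cases. WT + TCPOBOP replicate 5 was low for Cyp2a4 (2999 against 4905 to 5289).

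Setd8-LKO + TCPOBOP replicate 3 stood apart for Cyp7b1 (446 against 125 to 178), Cyp2u1 (87 against 50 to 56) and Cyp4a12a (2375 against 85 to 168), each time towards the untreated WT level. What sets these libraries apart was not tested.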

How the results depend on the processing

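Members called in Setd8-LKO + TCPOBOP against untreated WT numbered 34, or 33 with the run as a term, 32 of them shared. The number was 28 to 42 under the other scalings, tests, filter, adjustment and run term. Over all tested genes 85.1% were called, and 61.8% to 98.0% under these settings. In WT + TCPOBOP 18 called members became 6 with DESeq2 size factors and 6 with TMM factors. Both scalings were estimated over genes that the authors selected as changed and that mostly rose. Over all tested genes the share called went from 67.6% to 38.9% and 38.5% with them. Cyp2a21-ps then turned to −0.044 and −0.12, and Cyp4f15 to −0.15 and −0.22. Against WT + TCPOBOP, leaving out 1 library gave −0.085 to 0.48 for Cyp2a21-ps and −0.00091 to 0.58 for Cyp2a5, the lowest without Setd8-LKO replicate 4. Leaving out 1 library gave 27 to 36, 13 to 17 and 3 to 4 called members in the 3 comparisons. Over all tested genes those fits called 72.2% to 83.7%, 48.8% to 63.4% and 21.1% to 26.7%. Members with an exact permutation p under 0.05 then numbered 35 to 38, 19 and 6 to 7. ATAC peaks in the Setd8-LKO list only fell from 2 members to 0 at a −log10 p of 20 and to 1 with a window of 2500 bases. The cause of these changes was not tested.

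Replicate numbers do not pair the libraries: the correlation of same-numbered libraries' deviations was −0.25 to 0.12 in the first comparison, −0.47 to 0.18 in the second and −0.33 to −0.01 in the third. With the number as a block 22 members (19 shared), 7 and 3 were called. Over all tested genes the block fits called 58.8%, 23.4% and 16.0%, against 85.1%, 67.6% and 24.9% in the main fits.

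Depth per library is unknown here, counts under about 10, as of Cyp3a63-ps in untreated WT, rest on few reads, and selected genes only were tested.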
